A study of Mus musculus with 17 samples.

Results

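The macrophage genes described here are 33 genes that mark macrophages, the phagocytes of the innate immune system, or the wider leukocyte lineage. They were chosen by name, as the rows whose symbol in the deposited count files is on the list, and all 33 were found among 24015 genes. The question put to them is how much of this signature the mouse embryonic fibroblast (MEF) cultures carried and what level of it extraembryonic endoderm cells had. The study sequenced mRNA of 17 samples of CD-1 mouse cells. The controls are 3 libraries of MEF that had spent 3 passages in MEF medium. Stem cell lines of the extraembryonic endoderm, called XEN cells, are represented by 3 libraries from ESC medium and another 3 from XEN medium. For induced XEN (iXEN) cells, which the series' title ascribes to the reprogramming factors Oct4, Sox2, Klf4 and Myc (OSKM), there are 4 libraries per medium. Both endoderm cell types spent 10 passages in ESC medium and then 5 passages in ESC or in XEN medium, so cell type, medium and passage number differ together between them and MEF and cannot be told apart. All groups share the strain. Libraries carry the numbers of their labels, which are 1, 2 and 3 for MEF, 1, 2 and 7 for XEN and 1, 2, 6 and 9 for iXEN. The series calls the libraries of a group biological replicates but does not say that they came from separate cultures, so the p-values measure the spread between these libraries only.

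Macrophages descend from myeloid progenitors under the transcription factor PU.1, encoded by Spi1, and depend for survival on the receptor of colony-stimulating factor 1, encoded by Csf1r. They recognise debris and opsonised particles through scavenger, complement and Fc receptors, which signal through small adaptor proteins such as Tyrobp and Fcer1g, and they destroy what they engulf with lysozymes, cathepsins and an oxidase. Resident macrophages lie in most tissues of the embryo. Extraembryonic endoderm is an epithelium of the yolk sac and is no blood lineage.

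Each library held 20071567 to 45914262 counts in genes. Levels are given as CPM, the counts of a gene relative to its library's total and scaled between libraries, and 3 counts before that scaling corresponded to 0.0653 to 0.149 CPM. The cell labels were checked against marker lists. Summed over 8 fibroblast genes, the level was 35310 to 49345 CPM in MEF. It was 7658 CPM in XEN 1 in ESC medium, 2173 and 992 CPM in iXEN 2 and 9 in XEN medium, and 3.03 to 309 CPM in the 11 remaining endoderm libraries. Summed over 7 extraembryonic endoderm genes, it was 209 to 266 CPM in MEF and 2682 to 30965 CPM in XEN and iXEN cells. XEN 7 stood apart from the other endoderm cells in both media. In its ESC and XEN medium libraries the endothelial genes Pecam1 (91.9 and 179 CPM) and Tie1 (104 and 147 CPM) and the blood and endothelial regulator Runx1 (150 and 164 CPM) were high, against at most 7.38, 4.8 and 56.8 CPM in the 12 remaining endoderm libraries. Other endothelial genes did not all follow. In ESC medium Cdh5 averaged 123 CPM in XEN and 240 CPM in iXEN cells. Summed over 7 endothelial genes, XEN 7 was at 509 and 998 CPM, and iXEN 2 in ESC medium at 646 CPM. Results that rest on XEN 7 are given with and without it.

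All 33 genes had counts in each MEF library and 26 were over 1 CPM in each, while 2 to 7 were at 1 CPM or more in the single XEN and iXEN libraries. Summed over the 33 genes, the level was 166, 245 and 505 CPM in MEF 1, 2 and 3. The lysozyme gene Lyz2 made up 27 to 28.4 percent of that sum, followed by the mannose receptor gene Mrc1 with 9.17 to 9.9 percent. Per kilobase of exon, mean levels in MEF were 65.1 CPM for Lyz2 and 16.4 CPM for the lysosomal glycoprotein gene Cd68. They were 9.88 CPM for the adaptor gene Tyrobp, 8.66 CPM for the complement gene C1qa and 8.37 CPM for the cathepsin gene Ctss. The lowest 3 genes were Aif1 with 0.34, the invariant chain gene Cd74 with 0.259 and the haemoglobin scavenger receptor gene Cd163 with 0.0446 CPM per kilobase. Lyz2 thus had the highest level per length and Cd163 the lowest.

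**Figure D1:**
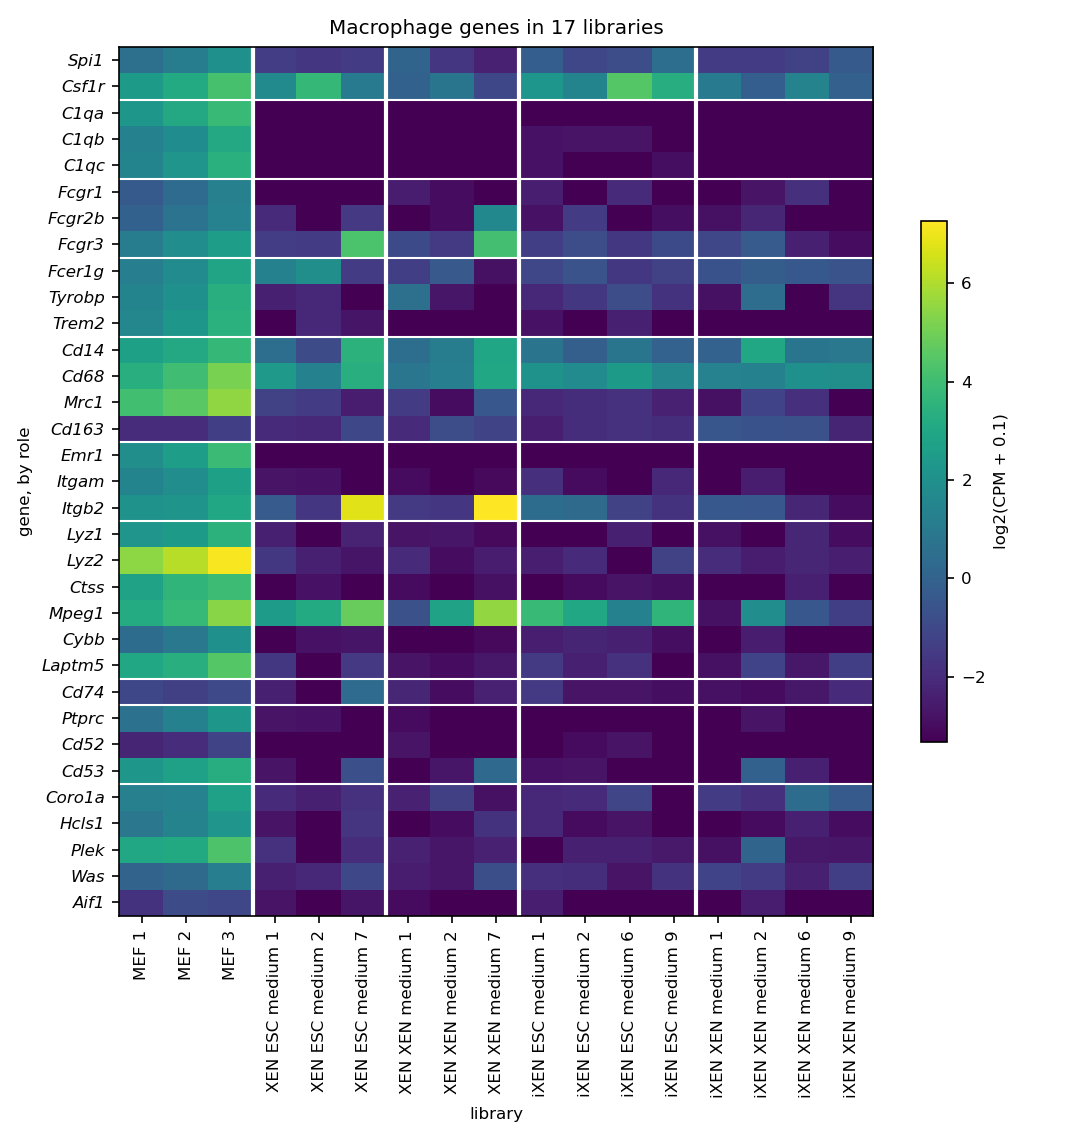
Level of the 33 macrophage genes (rows, grouped by role, white lines between roles) in the 17 libraries (columns, white lines between groups), as log2 of CPM plus 0.1. The MEF columns are bright, most of the XEN and iXEN columns are dark, and Csf1r, Mpeg1, Cd68, Cd14 and, in XEN 7, Itgb2 and Fcgr3 stand out among the dark ones.

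The MEF libraries differed from each other in these genes. MEF 3 was the highest and MEF 1 the lowest library for 30 of the 33 genes, an order that was noticed in the values. Over 14139 genes tested with counts in every MEF library, 14 percent had that order. The level in MEF 3 was at least 2 times that in MEF 1 for 29 of 33 macrophage genes and for 5.23 percent of the same 14139 genes. The ratio had a median of 2.84 over the macrophage genes, against 0.993 over all genes. It was highest for Mpeg1 (4.63), which encodes a pore-forming protein that kills engulfed bacteria, and lowest for Cd74 (1.07). None of the 8 fibroblast genes had that order of libraries, and their median ratio was 1.04. For 6 endothelial genes it was 0.648. In these bulk libraries fewer macrophages in a culture and less RNA of these genes per cell cannot be told apart.

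**Figure D2:**
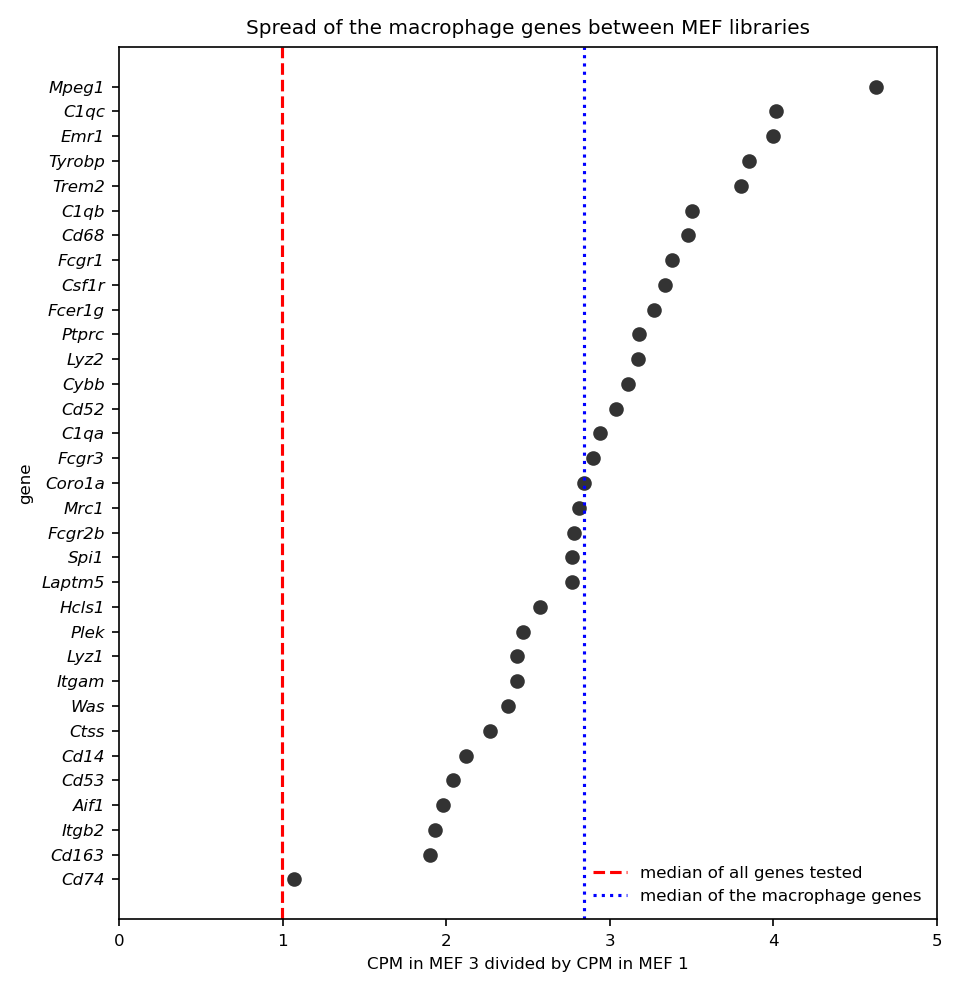
CPM in MEF 3 divided by CPM in MEF 1 for each of the 33 macrophage genes, sorted, on a linear axis. The dashed line marks the median of all genes tested (0.993) and the dotted line that of the macrophage genes (2.84), and 29 of the 33 points lie at 2 or above.

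Against MEF, the macrophage genes fell together in XEN and iXEN cells. Called means an adjusted p under 0.05 in edgeR's quasi-likelihood test over all genes tested, and genes are said to have fallen or risen only when called. In iXEN cells in ESC medium, 27 of 29 genes that passed the filter on low counts fell and 0 rose. Of all 14352 genes tested there, 25.9 percent fell and 20.8 percent rose. The count for XEN cells in ESC medium was 22 of 30 lower and 0 higher, against 13.7 percent lower and 11.4 percent higher of 14001 genes. In XEN medium, 27 of 30 fell in iXEN cells (14.9 percent lower and 17.7 percent higher of 14438 genes). The count for XEN cells in that medium was 22 of 31 lower (24.5 percent lower and 23 percent higher of 14390 genes), and 0 rose in either. Several members passed the filter through their counts in MEF alone and so had to differ, and the counts are therefore a description.

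The median log2 fold change of the tested macrophage genes was -5.64 in iXEN cells and -6.01 in XEN cells in ESC medium. In XEN medium it was -5.17 in iXEN and -5.10 in XEN cells. Over all genes tested it lay between -0.03 and 0.06. With the 3 to 5 genes that were at 0 in a group set to their bound against a floor of 3 counts, the median became -5.59 in XEN cells in ESC medium and kept its value in the other comparisons. The libraries of the groups did not overlap for 27, 23, 28 and 25 tested macrophage genes, all lower, in iXEN and XEN cells in ESC medium and in iXEN and XEN cells in XEN medium. The shares of all genes with such a split downward were 31.3, 31.7, 29 and 34.8 percent. Members that passed the filter through MEF alone had to lie low, so these medians and splits, too, are a description. Over all 33 genes, each of the 14 XEN and iXEN libraries was below each MEF library for 24, against 18.6 percent of 14352 genes. The 9 exceptions were Csf1r, Fcgr2b, Fcgr3, Fcer1g, Cd14, Cd163, Itgb2, Mpeg1 and Cd74.

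The 4 comparisons share the MEF libraries, and their calls depended on them to different degrees. The count of 22 for XEN cells in ESC medium became 5, 10 and 7 without MEF 1, 2 and 3, while the share of all genes called in either direction went from 25 to 2.57, 4.8 and 3.92 percent. The 5 genes called whichever library was left out were C1qa, Ctss, Itgam, Lyz2 and Mrc1. The count of 27 for iXEN cells in XEN medium became 15 without MEF 3, and 15 genes were called whichever library was left out. In iXEN cells in ESC medium 26 genes were, and in XEN cells in XEN medium 17. No share of all genes called whichever library was left out stands beside these counts. They are therefore a description and do not tell these genes from others. For iXEN cells in XEN medium, 12.5 to 39.4 percent of all genes were called with 1 library left out.

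**Figure D3:**
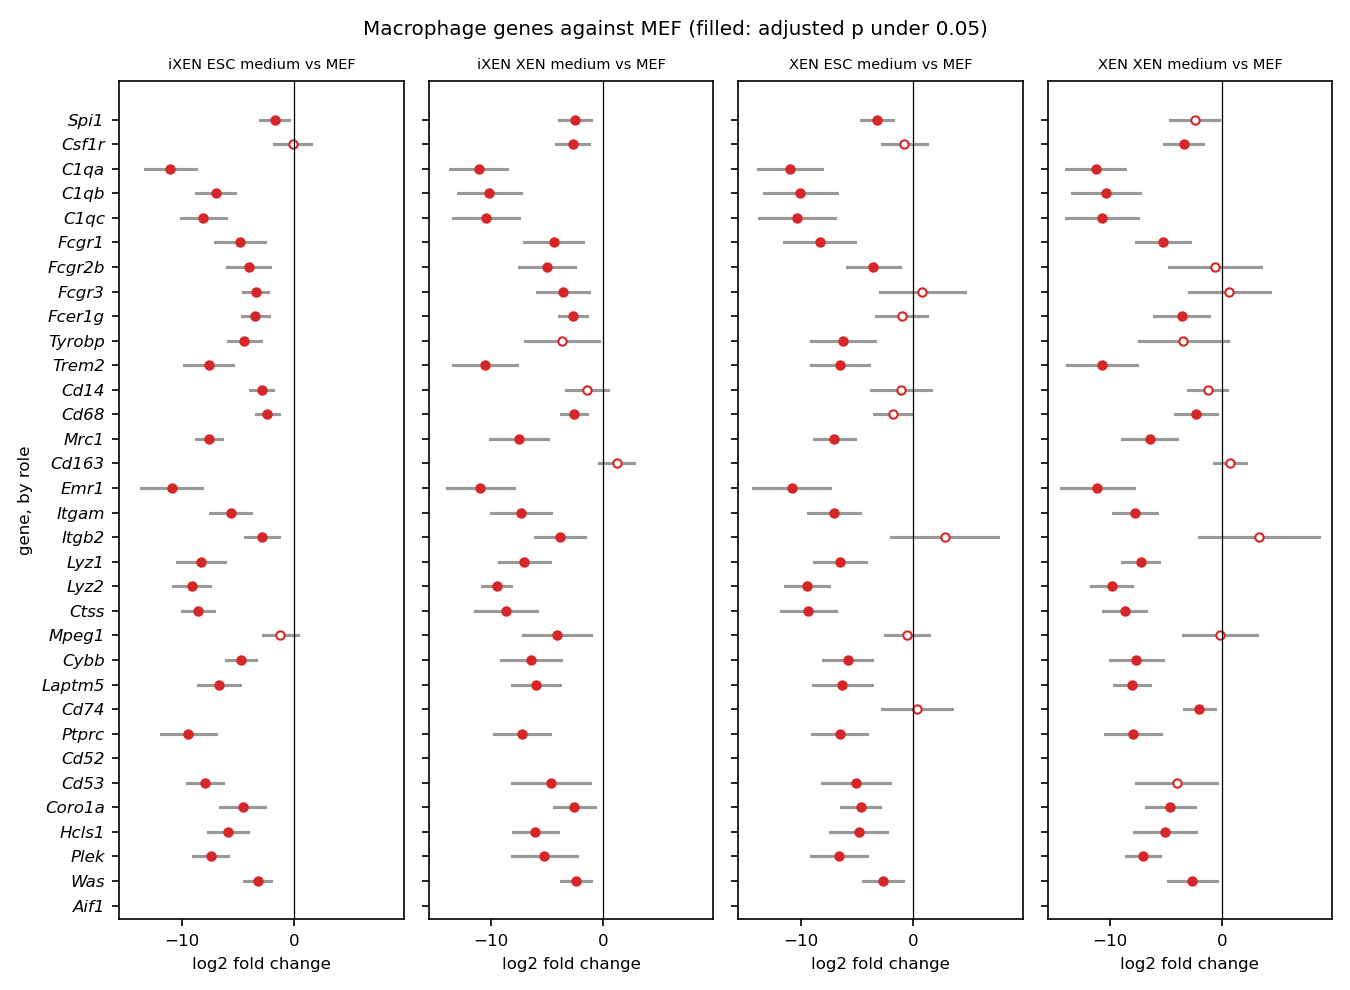
Log2 fold change against MEF for each macrophage gene (rows, by role) in 4 comparisons (panels), with 95 percent intervals from the edgeR fit; filled points have an adjusted p under 0.05 and genes without a point did not pass the filter on low counts. The filled points all lie left of 0, and the widest intervals are those of Itgb2 in XEN cells. Points for genes at 0 in XEN or iXEN cells, such as C1qa and Emr1, depend on the fit's prior count and are no measured folds.

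Of the lineage regulator and the growth factor receptor, Spi1 was at 1.39, 2.11 and 3.86 CPM in MEF 1, 2 and 3. In XEN and iXEN cells it ranged from 0.0982 to 1.31 CPM with a median of 0.303 CPM over 14 libraries. Every endoderm library was thus below every MEF library, iXEN 9 in ESC medium coming closest. Spi1 fell in iXEN cells in ESC medium (log2 fold change -1.71 ± 0.56, adjusted p = 0.0343), a call that was lost without MEF 2 or 3 or without iXEN 1, 2 or 6. It also fell in iXEN cells in XEN medium (-2.54 ± 0.60, adjusted p = 0.0185, lost without MEF 2 or 3) and in XEN cells in ESC medium (-3.19 ± 0.58, adjusted p = 0.0141, lost without any 1 MEF library). Errors of log2 fold changes are standard errors of the fit. In XEN cells in XEN medium the value was -2.46 ± 0.92 (adjusted p = 0.0667), with 0.979 CPM in XEN 1 and 0.22 and 0.0982 CPM in XEN 2 and 7. Mybpc3, a muscle gene within 5 kb of Spi1 on the same strand in the reference, was at 0.426 to 0.53 CPM in MEF and 25.3 to 627 CPM in endoderm cells. Its part in the counts of Spi1 was not tested.

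Csf1r, the receptor tyrosine kinase that binds CSF1 and interleukin 34, behaved otherwise. It was at 5.42, 8.88 and 18.1 CPM in MEF. In ESC medium it was at 3.21, 13.4 and 1.93 CPM in XEN 1, 2 and 7 and at 4.62, 2.65, 22.1 and 9.63 CPM in iXEN 1, 2, 6 and 9. These libraries overlapped those of MEF, and iXEN 6 was above all of them. The difference from MEF was -0.11 ± 0.72 in iXEN cells (adjusted p = 0.913, 95 percent interval -1.77 to 1.54) and -0.76 ± 0.83 in XEN cells (adjusted p = 0.515). In XEN medium Csf1r was at 0.881, 1.62 and 0.393 CPM in XEN 1, 2 and 7 and at 2.05, 0.787, 2.59 and 0.84 CPM in iXEN 1, 2, 6 and 9. All 7 libraries lay below those of MEF, and the log2 fold change was -3.43 ± 0.72 in XEN cells (adjusted p = 0.0106) and -2.72 ± 0.63 in iXEN cells (adjusted p = 0.0167, lost without MEF 2 or 3). The gene Hmgxb3 overlaps Csf1r on the other strand in the reference and holds 16.4 percent of its 50-base words. It was at 35.3 to 49.1 CPM in MEF and 37.1 to 111 CPM in endoderm cells, and with no strand setting on record, its part in the counts of Csf1r was not tested.

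The 3 chains of complement C1q, the molecule that tags immune complexes and dying cells and that tissue macrophages secrete had next to no counts in endoderm cells. C1qa was at 4.76, 8.24 and 14 CPM in MEF 1, 2 and 3 and had 0 counts in all 14 XEN and iXEN libraries. C1qb was at 2.4, 3.5 and 8.39 CPM and C1qc at 2.63, 4.52 and 10.6 CPM in MEF. In endoderm cells C1qb had 4 counts and C1qc had 2 counts, all in iXEN cells in ESC medium. C1qa was at least 376-fold lower in iXEN and at least 260-fold lower in XEN cells in ESC medium, and at least 425-fold and 405-fold lower in XEN medium. Bounds of this kind use a floor of 3 counts over the group and cover counting error only. All 3 genes fell in the 4 comparisons, with adjusted p between 0.00015 for C1qc in iXEN cells in ESC medium and 0.012 for C1qc in XEN cells in ESC medium. In the latter comparison the calls of C1qb and C1qc were lost without any 1 MEF library. The promoter of C1qc is shown because, of the 24 macrophage genes with a promoter window in the reference, it alone held GAGGAAGT, a sequence of the kind that PU.1 binds. The 250 bases before the start at chr4:136892915-136893164 (RefSeq, GRCm38.p6, minus strand) are written 5′ to 3′ along the gene, with the match in capitals, 195 to 188 bases before the start and on the opposite strand.
C1qc: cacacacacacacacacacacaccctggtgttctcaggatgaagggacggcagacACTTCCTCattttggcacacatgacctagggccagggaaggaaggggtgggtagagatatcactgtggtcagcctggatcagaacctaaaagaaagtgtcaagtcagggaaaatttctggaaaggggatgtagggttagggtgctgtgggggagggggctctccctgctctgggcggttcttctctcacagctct

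Among the Fc receptors, which bind the constant part of antibodies, Fcgr1 was at 0.697, 1.2 and 2.36 CPM in MEF and between 0 and 0.18 CPM in endoderm cells, at 0 in 8 of 14 libraries. It fell in all 4 comparisons, by 4.80 on the log2 scale in iXEN cells in ESC medium (adjusted p = 0.00394). It had 0 counts in XEN cells in ESC medium and was there at least 41-fold lower (adjusted p = 0.0155), a call lost without any 1 MEF library, as was that in iXEN cells in XEN medium (-4.43 ± 1.12, adjusted p = 0.0228). Fcgr2b, the inhibitory receptor, was at 0.89, 1.54 and 2.47 CPM in MEF. Fcgr3, an activating one, was at 2.09, 3.54 and 6.07 CPM. In the 12 endoderm libraries other than XEN 7, Fcgr2b reached at most 0.256 and Fcgr3 at most 0.713 CPM. Both lay below MEF there. In XEN 7, Fcgr3 was at 19.3 CPM in ESC medium and 17.1 CPM in XEN medium, above every MEF library, and Fcgr2b at 0.235 and 2.96 CPM. In iXEN cells in ESC medium Fcgr2b fell by 4.02 (adjusted p = 0.00475) and Fcgr3 by 3.40 (adjusted p = 0.000662), and in XEN medium by 5.06 (adjusted p = 0.0126) and 3.58 (adjusted p = 0.0299). In XEN medium the call of Fcgr2b was lost without MEF 3 and that of Fcgr3 without iXEN 6 or any 1 MEF library. In XEN cells Fcgr3 differed by 0.85 ± 1.57 in ESC medium (adjusted p = 0.706) and 0.65 ± 1.5 in XEN medium (adjusted p = 0.74). Without XEN 7 it was -3.67 (adjusted p = 0.013) and -3.49 (adjusted p = 0.00472). Fcgr2b fell by 3.53 in XEN cells in ESC medium (adjusted p = 0.0452, lost without XEN 1 or any 1 MEF library), and differed by -0.65 ± 1.69 in XEN medium (adjusted p = 0.771), which became -6.56 without XEN 7 (adjusted p = 0.00243).

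Fcgr2b and Fcgr3 lie in 1 gene cluster on chromosome 1 and share 4.48 percent of the 50-base words of Fcgr2b and 10.2 percent of those of Fcgr3, so their counts may not be fully separate. Their promoters are shown because XEN 7 had a high level of one and a lower level of the other. Both are 250 bases before the start in RefSeq, GRCm38.p6, minus strand, at chr1:170976072-170976321 for Fcgr2b and chr1:171059404-171059653 for Fcgr3, with GGAA, the core that PU.1 and its relatives bind, in capitals on either strand (TTCC where it lies on the other). GGAA was found 4 times in the first and 3 times in the second. Aligned with gaps, 123 of 210 bases were the same (58.6 percent of those aligned and 49.2 percent of the 250). Unrelated promoters were not aligned, so this is no measure of kinship.
Fcgr2b: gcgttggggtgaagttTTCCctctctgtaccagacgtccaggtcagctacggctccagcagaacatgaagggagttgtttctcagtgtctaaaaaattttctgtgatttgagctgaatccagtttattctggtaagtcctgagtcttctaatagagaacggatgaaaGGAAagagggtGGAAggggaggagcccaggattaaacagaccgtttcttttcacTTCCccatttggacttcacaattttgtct
Fcgr3: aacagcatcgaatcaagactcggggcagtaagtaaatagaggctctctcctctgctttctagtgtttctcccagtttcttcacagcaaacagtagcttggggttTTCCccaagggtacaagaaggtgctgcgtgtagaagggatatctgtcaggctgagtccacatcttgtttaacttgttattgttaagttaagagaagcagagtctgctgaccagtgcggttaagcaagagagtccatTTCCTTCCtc

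The activating adaptors were next. Fcer1g, the signalling chain of Fc receptors, was at 2.21, 3.35 and 7.22 CPM in MEF. It was at 2.39, 3.72 and 0.261 CPM in XEN 1, 2 and 7 in ESC medium, so that 2 libraries reached into the MEF range, and at 0.0393 to 0.763 CPM in the other 11 endoderm libraries. It fell in iXEN cells in ESC medium (-3.45 ± 0.53, adjusted p = 0.000962) and in both cell types in XEN medium (-2.67 ± 0.53 and -3.60 ± 1.02 for iXEN and XEN cells, adjusted p = 0.0104 and 0.0285). The call in iXEN cells in XEN medium was lost without MEF 3, and that in XEN cells in XEN medium without XEN 1 or any 1 MEF library. The difference for XEN cells in ESC medium was -0.96 ± 0.94 (adjusted p = 0.467). Tyrobp, the adaptor also called DAP12, was at 2.63, 3.95 and 10.1 CPM in MEF. In endoderm cells it ranged from 0 to 1.42 CPM with a median of 0.13 CPM, the highest being XEN 1 (1.42 CPM) and iXEN 2 (1.3 CPM) in XEN medium. All 14 libraries were below MEF. It fell in ESC medium in iXEN cells (-4.43 ± 0.64, adjusted p = 0.000699) and in XEN cells (-6.20 ± 1.18, adjusted p = 0.0157, lost without any 1 MEF library). In XEN medium it did not pass in iXEN (-3.69 ± 1.43, adjusted p = 0.0822) or XEN cells (-3.46 ± 1.64, adjusted p = 0.127), and passed without iXEN 2 (-5.90, adjusted p = 0.0121) or XEN 1 (-7.59, adjusted p = 0.00944). Trem2, a lipid receptor that signals through Tyrobp, was at 2.86, 4.82 and 10.9 CPM in MEF and had 8 counts in all in the 14 endoderm libraries. In ESC medium it fell in iXEN cells, with a ratio of 263 for MEF over iXEN (exact 95 percent counting interval 90 to 1280, adjusted p = 0.000315), and in XEN cells (-6.50 ± 1.08, adjusted p = 0.0117, lost without any 1 MEF library). It was at 0 counts in XEN medium and there at least 298-fold lower in iXEN and 283-fold lower in XEN cells (adjusted p = 0.00511 and 0.00365).

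The pattern and scavenger receptors were mixed. Cd14, the co-receptor for bacterial lipopolysaccharide, was at 6.35, 8.28 and 13.4 CPM in MEF. It was at 11 and 7.66 CPM in XEN 7 in ESC and XEN medium and at 8.04 CPM in iXEN 2 in XEN medium, within the MEF range, and at 0.448 to 2.12 CPM in the other 11 endoderm libraries. It fell in iXEN cells in ESC medium (-2.88 ± 0.43, adjusted p = 0.000846). In the other 3 comparisons the difference lay between -1.04 and -1.48 with adjusted p between 0.184 and 0.505, and it passed when 1 library was left out, with -3.20 and -2.39 in XEN cells in ESC and XEN medium without XEN 7 (adjusted p = 0.0202 and 0.00592) and -2.60 in iXEN cells in XEN medium without iXEN 2 (adjusted p = 0.00988). Cd68, a glycoprotein of lysosomes that many cells hold at a low level, was at 10.1, 16.4 and 35.3 CPM in MEF and at 1.67 to 9.99 CPM with a median of 3.52 CPM in endoderm cells. It had counts in all 14 libraries, none of which reached the lowest MEF library, XEN 7 in ESC medium coming closest. It fell by 2.35 in iXEN cells in ESC medium (adjusted p = 0.00311), by 2.63 in iXEN cells in XEN medium (adjusted p = 0.00836) and by 2.33 in XEN cells in XEN medium (adjusted p = 0.0466). The last call was lost without XEN 1 or 2 or any 1 MEF library. The difference for XEN cells in ESC medium was -1.74 ± 0.70 (adjusted p = 0.111).

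Mrc1 was at 16.5, 23.7 and 46.2 CPM in MEF. In endoderm cells it ranged from 0 to 0.628 CPM with a median of 0.172 CPM, far below every MEF library. It fell in the 4 comparisons, with -7.59 ± 0.50 and -6.99 ± 0.76 in iXEN and XEN cells in ESC medium (adjusted p = 9.87e-06 and 0.00478) and -7.50 ± 1.12 and -6.44 ± 1.01 in XEN medium (adjusted p = 0.00432 and 0.00392). Cd163 was low in every library, at 0.155, 0.151 and 0.295 CPM in MEF and 0.084 to 0.608 CPM in endoderm cells, and the ranges overlapped. It passed the filter in XEN medium only, with 1.19 ± 0.66 in iXEN (adjusted p = 0.198) and 0.71 ± 0.59 in XEN cells (adjusted p = 0.349).

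Of the adhesion genes, Emr1, which encodes the macrophage antigen F4/80, was at 3.72, 5.91 and 14.9 CPM in MEF and had 0 counts in all 14 endoderm libraries. It was at least 349-fold and 241-fold lower in iXEN and XEN cells in ESC medium (adjusted p = 0.000751 and 0.0114) and at least 394-fold and 375-fold lower in XEN medium (adjusted p = 0.00505 and 0.00366). In XEN cells in ESC medium the call was lost without MEF 1 or 2. Itgam, the alpha chain of the integrin CR3 (CD11b), was at 2.63, 3.54 and 6.39 CPM in MEF and had 16 counts in all endoderm libraries together, with at most 0.168 CPM. Every endoderm library was below every MEF library, and Itgam fell in the 4 comparisons, by 5.64 in iXEN cells in ESC medium (adjusted p = 0.000608) and with adjusted p up to 0.00738 in the others. Its 2 counts in XEN cells in ESC medium give a ratio of 181 for MEF over XEN with an exact 95 percent counting interval of 50 to 1500. A gene model that the files do not list, Gm49368, holds 68.5 percent of the 50-base words of Itgam.

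Itgb2, the beta chain that pairs with Itgam and other leukocyte integrin chains, differed from its partner. It was at 4.18, 4.36 and 8.07 CPM in MEF. It was at 111 and 155 CPM in XEN 7 in ESC and XEN medium, where it made up 59.8 and 64.3 percent of the summed macrophage gene level. It reached at most 1.26 CPM in the 12 other endoderm libraries, so XEN 7 lay above and the rest below MEF. In iXEN cells it fell by 2.87 in ESC medium (adjusted p = 0.00776) and by 3.87 in XEN medium (adjusted p = 0.0209, lost without any 1 MEF library). In XEN cells the difference was 2.84 ± 1.98 in ESC medium (adjusted p = 0.315) and 3.28 ± 2.22 in XEN medium (adjusted p = 0.261). Without XEN 7 it was -3.34 (adjusted p = 0.0209) and -4.50 (adjusted p = 0.000926), a change of sign.

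XEN 7 did not carry the rest of the macrophage genes at a like level. Its summed level was 185 CPM in ESC medium and 241 CPM in XEN medium, within the MEF range of 166 to 505 CPM. Leaving out Csf1r, Mpeg1, Cd68, Cd14, Itgb2 and Fcgr3, which were picked after their values were seen, the other 27 genes summed to 4.41 and 6.36 CPM in XEN 7, against 129 to 381 CPM in MEF and 2.15 to 6.42 CPM in the other endoderm libraries. C1qa, C1qb, C1qc, Emr1, Fcgr1, Ptprc, Cd52 and Tyrobp had 0 counts in both XEN 7 libraries. Besides Itgb2, Fcgr3, Cd14 and Mpeg1, the genes with more than 1 CPM in a XEN 7 library were Cd68, Csf1r, Fcgr2b, Cd53 and Cd74. Without XEN 7, 25 macrophage genes fell in XEN cells in ESC medium and 28 in XEN medium, against 22 and 22 with it. Called in either direction were then 33.8 and 60.8 percent of all genes.

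**Figure D4:**
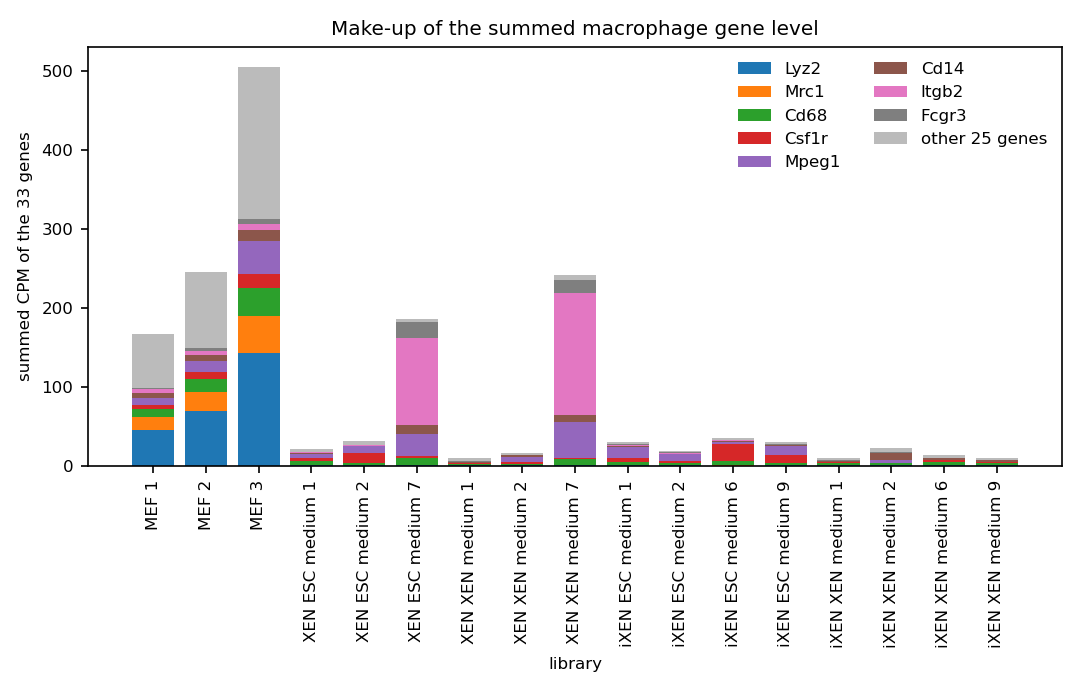
Summed CPM of the 33 macrophage genes in each library, stacked by gene, with 8 genes in colour and the other 25 in light grey. Lyz2 and the grey genes fill the MEF bars (166, 245 and 505 CPM), while Itgb2 fills most of the 2 XEN 7 bars (185 and 241 CPM) and the other endoderm bars end at 34.9 CPM or lower.

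Genes of the lysosome and of killing gave the largest levels. Lyz2, the lysozyme of macrophages, was at 44.9, 69.6 and 143 CPM in MEF. In endoderm cells it ranged from 0 to 0.327 CPM with a median of 0.0882 CPM, and 52 counts were found in all 14 libraries together. It fell in the 4 comparisons, with -9.12 ± 0.73 and -9.42 ± 0.81 in iXEN and XEN cells in ESC medium (adjusted p = 2.66e-05 and 0.00298), and -9.53 ± 0.56 and -9.86 ± 0.76 in XEN medium (adjusted p = 0.000222 and 0.000448). These calls held whichever library was left out. Its neighbour Lyz1, best known from Paneth cells of the gut, was at 4.53, 5.34 and 11 CPM in MEF and no higher than 0.12 CPM in endoderm cells. It fell in the 4 comparisons, with adjusted p between 0.000191 in iXEN cells and 0.00876 in XEN cells, both in ESC medium; the latter call was lost without MEF 1 or 3. The pair shares 16.1 percent of the 50-base words of Lyz1 and 15.4 percent of those of Lyz2, so some reads of one may have been set aside or counted for the other. Their promoters are shown because the genes are close copies that moved together. Both are the 250 bases before the start in RefSeq, GRCm38.p6, minus strand, at chr10:117292869-117293118 for Lyz1 and chr10:117282273-117282522 for Lyz2. Capitals mark bases that differ from the aligned base of the other or are unaligned. Of 248 aligned bases, 200 were the same (80.6 percent).
Lyz1: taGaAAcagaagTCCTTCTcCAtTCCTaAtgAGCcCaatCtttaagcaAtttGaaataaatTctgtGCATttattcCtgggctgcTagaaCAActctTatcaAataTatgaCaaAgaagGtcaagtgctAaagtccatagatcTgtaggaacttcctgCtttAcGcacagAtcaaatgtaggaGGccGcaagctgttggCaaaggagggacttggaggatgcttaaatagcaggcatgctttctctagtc
Lyz2: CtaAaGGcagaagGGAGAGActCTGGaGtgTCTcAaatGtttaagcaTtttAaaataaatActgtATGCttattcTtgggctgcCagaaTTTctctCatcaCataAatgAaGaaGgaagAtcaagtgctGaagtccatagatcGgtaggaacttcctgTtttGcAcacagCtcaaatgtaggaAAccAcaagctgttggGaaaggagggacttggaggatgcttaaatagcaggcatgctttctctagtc

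Ctss, a protease of antigen-presenting cells, was at 6.74, 12.1 and 15.3 CPM in MEF and had 10 counts in all 14 endoderm libraries. It had 3 counts in iXEN cells in ESC medium, a ratio of 466 for MEF over iXEN with an exact 95 percent counting interval of 159 to 2265. It fell in the 4 comparisons (adjusted p between 1.48e-05 in iXEN cells and 0.00483 in XEN cells, both in ESC medium). Cybb, the catalytic chain of the phagocyte oxidase, was at 1.24, 1.81 and 3.86 CPM in MEF and no higher than 0.116 CPM in endoderm cells. Laptm5, a lysosomal membrane protein of leukocytes, was at 8.01, 9.93 and 22.2 CPM in MEF and no higher than 0.344 CPM in endoderm cells. Both lay below MEF in every endoderm library and fell in the 4 comparisons, by 4.71 and 6.67 in iXEN cells in ESC medium (adjusted p = 0.000343 and 0.000279). The calls of Cybb and Laptm5 in XEN cells in ESC medium (adjusted p = 0.0103 and 0.0127) were lost without MEF 1 or 3, and that of Laptm5 also without MEF 2.

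Mpeg1 alone in this group had a level near that of MEF in many endoderm libraries. It was at 9.1, 13.6 and 42.1 CPM in MEF. In ESC medium it was at 5.64, 8.73 and 27.9 CPM in XEN 1, 2 and 7 and at 14.6, 7.85, 2.4 and 12.2 CPM in iXEN 1, 2, 6 and 9, within or below the MEF range. The difference from MEF was -1.20 ± 0.67 in iXEN (adjusted p = 0.178) and -0.54 ± 0.82 in XEN cells (adjusted p = 0.641). In XEN medium it was at 0.514, 6.74 and 46.7 CPM in XEN 1, 2 and 7 and at 0.038, 3.57, 0.632 and 0.29 CPM in iXEN 1, 2, 6 and 9. The XEN libraries spanned a wider range than those of MEF, while the iXEN libraries all lay below it. Mpeg1 fell by 4.12 in iXEN cells in XEN medium (adjusted p = 0.0457), a call that was lost without iXEN 6 or 9 or any 1 MEF library, and differed by -0.21 ± 1.36 in XEN cells (adjusted p = 0.911). Its promoter is shown because it had such a level in endoderm cells where most macrophage genes did not. The 250 bases before the start at chr19:12460520-12460769 (RefSeq, GRCm38.p6, plus strand) hold GGAA once, in capitals and on the opposite strand.
Mpeg1: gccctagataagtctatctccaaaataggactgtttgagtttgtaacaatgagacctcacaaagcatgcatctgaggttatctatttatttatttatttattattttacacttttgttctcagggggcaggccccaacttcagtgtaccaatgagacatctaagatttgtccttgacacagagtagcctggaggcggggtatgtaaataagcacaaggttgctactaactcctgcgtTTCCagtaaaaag

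**Figure D5:**
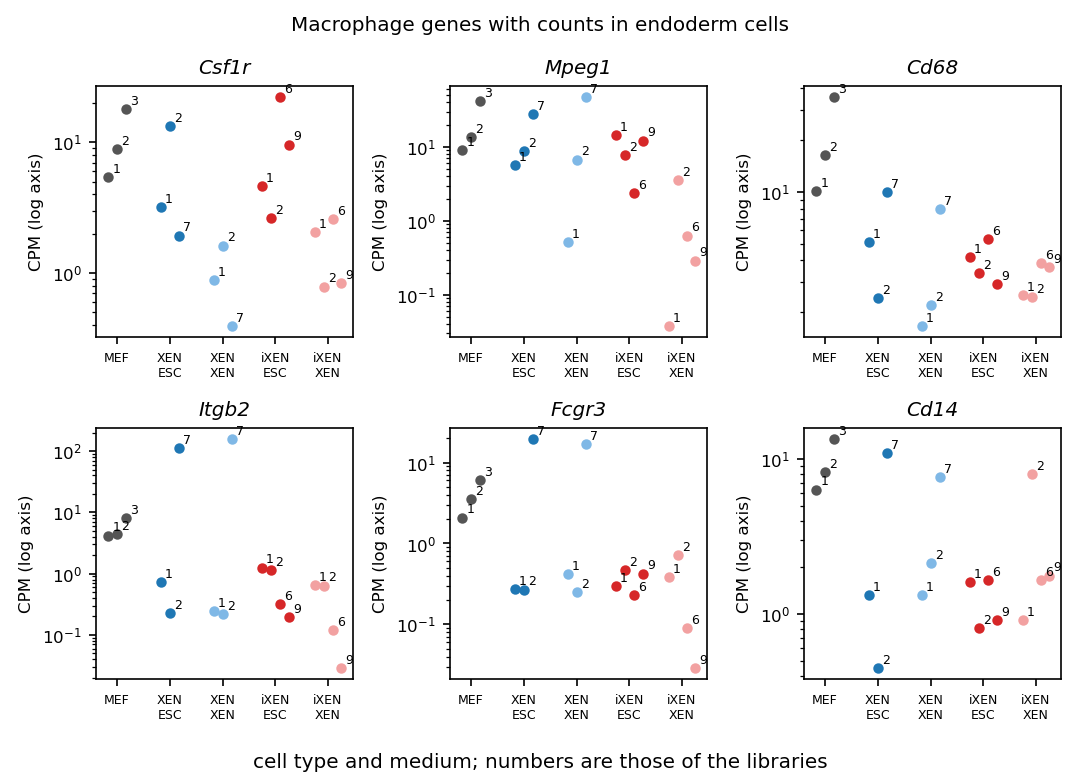
CPM of Csf1r, Mpeg1, Cd68, Itgb2, Fcgr3 and Cd14 in each library, on a log axis with its own range in each panel, with points labelled by library number and ordered by cell type and medium. XEN 7 is the highest endoderm library for Mpeg1, Cd68, Itgb2, Fcgr3 and Cd14. Csf1r is lower in XEN medium than in ESC medium in both cell types, without a call by edgeR, and its iXEN groups nearly meet (2.59 and 2.65 CPM).

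Antigen presentation was covered by Cd74 alone, the chaperone of class II histocompatibility proteins. It was at 0.387, 0.301 and 0.412 CPM in MEF, at 1.2 CPM in XEN 7 in ESC medium and at 0 to 0.252 CPM in the other 13 endoderm libraries. It fell in XEN cells in XEN medium (-2.03 ± 0.57, adjusted p = 0.0275), a call lost without any 1 MEF library, and differed by 0.38 ± 1.28 in XEN cells in ESC medium (adjusted p = 0.841), which became -2.74 without XEN 7 (adjusted p = 0.0775). It did not pass the filter against iXEN cells.

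Among leukocyte surface genes, Ptprc, which encodes the common leukocyte antigen CD45, was at 1.51, 2.45 and 4.8 CPM in MEF and had 5 counts in all endoderm libraries, with 0 in 10 of 14. It had 0 counts in iXEN cells in ESC medium and was at least 123-fold lower there (adjusted p = 0.000907). It fell in the other 3 comparisons as well (adjusted p between 0.00209 and 0.00979), though in XEN cells in ESC medium not without MEF 1 or 3. Cd53, a tetraspanin, was at 4.76, 6.55 and 9.72 CPM in MEF. It was at 0.496 and 1.12 CPM in XEN 7 in ESC and XEN medium, at 0.886 CPM in iXEN 2 in XEN medium and at most 0.0902 CPM in the other 11 endoderm libraries, all below MEF. It fell in iXEN cells in ESC medium (-7.91 ± 0.71, adjusted p = 5.3e-05). In XEN cells in ESC medium (-5.05 ± 1.27, adjusted p = 0.0332) the call was lost without XEN 1 or any 1 MEF library. In iXEN cells in XEN medium (-4.67 ± 1.51, adjusted p = 0.049) it was lost without any 1 MEF library and without iXEN 1, 6 or 9. In XEN cells in XEN medium the difference was -4.07 ± 1.51 (adjusted p = 0.0656), and without XEN 7 it was -7.82 (adjusted p = 0.000818). Cd52, a small glycoprotein of leukocytes, had 3, 4 and 12 counts in MEF 1, 2 and 3 and 4 counts in all endoderm libraries, and did not pass the filter in any comparison with MEF.

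Of 5 genes of the leukocyte cytoskeleton and signalling, Plek, a target of protein kinase C, was at 8.05, 8.65 and 19.9 CPM in MEF. It was at 0.959 CPM in iXEN 2 in XEN medium and at most 0.184 CPM in the 13 other endoderm libraries. Coro1a, which binds actin, was at 2.32, 2.48 and 6.6 CPM in MEF and at 0 to 1.26 CPM in endoderm cells, with the highest levels in iXEN 6 (1.26 CPM) and iXEN 9 (0.695 CPM) in XEN medium. All endoderm libraries were below MEF for both. Hcls1, a cortactin relative, was at 1.74, 2.56 and 4.48 CPM in MEF and no higher than 0.209 CPM in endoderm cells. Was, which relays signals to actin, was at 0.929, 1.17 and 2.21 CPM in MEF and no higher than 0.491 CPM in endoderm cells. All 4 fell in the 4 comparisons, with -7.43, -4.58, -5.90 and -3.23 in iXEN cells in ESC medium for Plek, Coro1a, Hcls1 and Was (adjusted p = 5.85e-05, 0.00301, 0.000436 and 0.00142). The weakest calls were those of Was in XEN cells in XEN medium (-2.69 ± 0.91, adjusted p = 0.0496) and of Coro1a in iXEN cells in XEN medium (-2.57 ± 0.80, adjusted p = 0.0429). The former was lost without XEN 1 or 2 or any 1 MEF library, and the latter without iXEN 1, 2 or 9 or any 1 MEF library. Was also lost its call in XEN cells in ESC medium (adjusted p = 0.0426) without XEN 1 or 2 or any 1 MEF library, and in iXEN cells in XEN medium (adjusted p = 0.02) without any 1 MEF library. The call of Coro1a in XEN cells in ESC medium (adjusted p = 0.00918) was lost without MEF 1. The calls of Plek in XEN cells in ESC medium and in iXEN cells in XEN medium were lost without MEF 1 or 3, and that of Hcls1 in XEN cells without any 1 MEF library in ESC medium and without MEF 3 in XEN medium. Aif1, an actin-binding protein also called Iba1, had 5, 12 and 13 counts in MEF and 9 in all endoderm libraries, and passed no filter. Bola2 and Cnrip1 overlap Coro1a and Plek on the other strand in the reference. Bola2 was at 97.6 and 133 CPM in iXEN 6 and 9 in XEN medium against 11.2 to 20.4 CPM in MEF, and Cnrip1 at 4.33 CPM in iXEN 2 in XEN medium and at 16.2 to 19 CPM in MEF. Their part in these values was not tested.

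iXEN cells were compared with XEN cells in each medium, to see whether endoderm cells made by reprogramming differ from XEN lines in the level of these genes. No macrophage gene was called among 8 tested in ESC medium and 12 tested in XEN medium, and 0 percent of 12944 and 13263 genes tested were called by edgeR in either direction. At an unadjusted p under 0.05 there were 3 macrophage genes in each medium, and DESeq2 called 0 in each. The unadjusted counts have no share of all genes beside them and are a description only. The largest fitted differences were those of Itgb2, -5.70 ± 1.89 in ESC medium (adjusted p = 0.342) and -7.19 ± 2.29 in XEN medium (adjusted p = 0.985). Without XEN 7 they were 0.59 (adjusted p = 0.874) and 0.63 (adjusted p = 1). For Fcgr3 the differences were -4.26 ± 1.45 (adjusted p = 0.344) and -4.28 ± 1.65 (adjusted p = 0.985). Without XEN 7 the latter was -0.11, and in ESC medium Fcgr3 then did not pass the filter on low counts. Spi1 was the 1 gene whose libraries did not overlap, at 0.372 to 1.31 CPM in iXEN and 0.224 to 0.275 CPM in XEN libraries of ESC medium. There 3.77 percent of genes were split upward like Spi1 and another 6.16 percent downward. Spi1 was found by a search in both directions, so both shares apply and its split is a description.

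XEN medium was compared with ESC medium within each cell type. By edgeR 0 macrophage genes were called among 9 tested in XEN and 8 in iXEN cells, and 0 percent of 13241 and 12920 genes. Unadjusted, 1 and 2 macrophage genes had p under 0.05, and DESeq2 called 0 and 2. The unadjusted counts are again a description without a share of all genes. The shares of all genes that DESeq2 called are given with the alternatives below. Csf1r was the gene whose groups did not overlap, lower in XEN medium in both cell types. The share of genes split downward in that way was 5.13 percent in XEN and 5.81 percent in iXEN cells. Split upward were 7.42 and 6.21 percent. The log2 fold change of Csf1r was -2.69 ± 0.99 in XEN cells (adjusted p = 0.8, 95 percent interval -5.04 to -0.35) and -2.63 ± 0.76 in iXEN cells (adjusted p = 0.106, 95 percent interval -4.32 to -0.93). Mpeg1 differed by -3.0 ± 1.13 in iXEN cells (adjusted p = 0.162) and by 0.31 ± 1.35 in XEN cells (adjusted p = 0.971). The 2 genes that DESeq2 called in iXEN cells were Csf1r (adjusted p = 0.00506) and Mpeg1 (adjusted p = 0.0273). Neither method gives a call in XEN cells, and whether the effect of medium differs between the cell types was not tested.

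Genes that work with the macrophage genes were followed through 9 lists with 95 members. Of 72 tested, 55 fell and 3 rose in iXEN cells in ESC medium, and 35 of 72 fell and 1 rose in XEN cells. The shares of all genes tested were 25.9 percent lower and 20.8 percent higher in the former and 13.7 and 11.4 percent in the latter, where the share called fell to between 2.57 and 4.8 percent without 1 MEF library. In XEN medium 38 of 74 fell and 0 rose in iXEN cells, and 44 of 73 fell and 2 rose in XEN cells, beside 14.9 percent lower and 17.7 percent higher of all genes in iXEN and 24.5 and 23 percent in XEN cells. Several genes of these lists, too, passed the filter through their counts in MEF alone and so had to differ. The counts of the lists are therefore a description. Of tissue macrophage surface and secreted genes, 12 and 10 of 13 tested fell in iXEN and XEN cells in ESC medium and 11 and 12 of 13 in XEN medium. Of these, the chemokine gene Ccl9 was at 10.1 to 16.6 CPM in MEF and 0.369 to 3.79 CPM in endoderm cells, and Ccl6 at 4.62 to 5.42 CPM in MEF and at 0 in 13 of 14 endoderm libraries. Among transcription factors, Maf was at 27.7 to 48 CPM in MEF and 0.0982 to 2.16 CPM in endoderm cells and fell in the 4 comparisons (adjusted p between 0.000351 and 0.0156).

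Genes upstream and downstream of the receptors did not all follow. Csf1, the ligand of Csf1r, was at 247 to 336 CPM in MEF and 0.343 to 80.7 CPM in endoderm cells, and fell in ESC medium by 4.86 in iXEN cells (adjusted p = 0.000718) and by 3.25 in XEN cells (adjusted p = 0.0207). Lyn, a kinase that phosphorylates the adaptors' tyrosine motifs, went the other way, from 8.66 to 16.2 CPM in MEF to 14.9 to 72.9 CPM in endoderm cells. It rose in ESC medium by 2.28 in iXEN cells (adjusted p = 0.000347) and by 1.45 in XEN cells (adjusted p = 0.0343). Ptpn6, a phosphatase of the same pathway, rose by 2.34 in iXEN cells in ESC medium (adjusted p = 0.00145), and Inpp5d, a lipid phosphatase, by 2.16 (adjusted p = 0.0184). In XEN cells in ESC medium neither was called, with 2.23 for Ptpn6 (adjusted p = 0.0848) and 0.02 for Inpp5d (adjusted p = 0.987). No gene of these lists, Lyn included, rose in iXEN cells in XEN medium. Of the partners of Cybb, the small GTPase gene Rac1, which most cells express, was not called in any comparison with MEF. Cyba, the other chain of the oxidase, was at 56.3 to 58.8 CPM in MEF. It was at 30.9 CPM in XEN 1 in ESC medium and at 14.9 and 48.7 CPM in iXEN 2 and 9 in XEN medium, the libraries with the highest fibroblast sums, and at most 1.26 CPM in the other endoderm libraries. The scavenger receptor gene Msr1 was at 11.5 to 32.5 CPM in MEF and no higher than 0.0902 CPM in endoderm cells and fell in the 4 comparisons.

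Markers of other cell types gave the setting of these values. In XEN 1 in ESC medium the 8 fibroblast genes were at 7658 CPM. There C1qa and Emr1 were at 0, Lyz2 at 0.229 CPM and Fcer1g at 2.39 CPM. In iXEN 2 and 9 in XEN medium, with 2173 and 992 CPM, Lyz2 was at 0.0738 and 0.0869 CPM. Other macrophage genes were highest of their group there. In iXEN 2 these were Cd14 (8.04 CPM), Mpeg1 (3.57 CPM), Tyrobp (1.3 CPM), Plek (0.959 CPM) and Cd53 (0.886 CPM), and in iXEN 9 Spi1 (0.695 CPM). Without iXEN 2 and 9 together, 30 macrophage genes fell in iXEN cells in XEN medium, with 51.8 percent of all genes called. Summed over 8 neutrophil genes the level was 0.0295 to 0.151 CPM in MEF and over 10 lymphocyte genes 0.527 to 1.08 CPM. The 6 megakaryocyte and platelet genes summed to 13.2 to 14.7 CPM in MEF. In XEN 7 in ESC medium 7 mast cell genes summed to 30.6 CPM, led by Cma1 with 27.5 CPM, and in XEN medium to 6.75 CPM. In the other endoderm libraries they summed to 1.57 to 34 CPM, most of it from Hdc, which makes histamine. The 7 endothelial genes summed to 509 and 998 CPM in XEN 7 and 48.8 to 646 CPM in the other endoderm libraries. The part of these cell types in the values of Itgb2 and Fcgr3 in XEN 7 was not tested.

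The promoters were read for the binding sequence of PU.1. Of the 33 genes, 24 had a window of 250 bases before the start in the RefSeq table. Both strands were searched. GAGGAAGT was found in 1 of 24 macrophage genes (4.17 percent) and in 2.79 percent of 27025 genes with a window. Its core GGAA, which GAGGAAGT contains, was found in 24 of 24 and in 94.2 percent of all. A match describes the letters in the window and is no measured site.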

How the data were processed

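Messenger RNA of 17 libraries of CD-1 mouse cells was sequenced after Trizol extraction with a TruSeq mRNA kit, per the labels' protocols. The authors deposited raw read counts per gene and library. Their tools, per the submitters' processing notes, were FastQC 0.11.3, Trimmomatic 0.32, TopHat2 2.0.12 and HTSeq 0.6.1 with build mm9. For the gene annotation and the strand setting, nothing is stated (not given in the sources used here). Of each file, the 5 lines that name no gene (20.8 to 33.1 percent of its counts) were left out.

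Each comparison used only its own libraries in edgeR 4.0.16 (R 4.3.3), with filterByExpr (minimum count 10, minimum total 15), TMM scaling, the two-sided quasi-likelihood test and Benjamini-Hochberg adjustment over all genes tested, called under 0.05. CPM values use TMM factors over all 17 libraries. Levels per kilobase use exon lengths of GENCODE M21 (GRCm38), which approximate those of mm9. Promoters were aligned with Biopython 1.88. The fits were tested on simulated data. No libraries of a group agreed within sampling noise (chi-square per degree of freedom 43.4 to 1220).

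All 33 macrophage genes were to be accounted for, and of each other list at most the 4 genes with the highest mean CPM over all libraries were to be named. The members and lists were chosen with earlier results of these data known. Alternatives were edgeR with RLE size factors in place of TMM, no filter, DESeq2 1.42.0 with its size factors, a replicate block, and leaving out each library. The labels number the libraries. Between media, the deviations of same-numbered libraries correlated at r = 0.257, 0.388 and 0.657 in XEN cells. In iXEN cells r was 0.211, 0.24, 0.143 and -0.0565. XEN 2 in ESC medium and XEN 1 in XEN medium, which differ in number, gave 0.451. The main fits took no libraries as paired.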

Additional observations from a re-analysis of the deposited data

Results flagged for a closer look

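Within the iXEN groups of 4 libraries, 20 sets of values whose highest library reached 0.5 CPM were looked at for a library far from the others. Of these, 6 had one. A set could enter through the very library that then stood apart, so this number is a description and has no chance rate to be set against. All 6 were in XEN medium. In iXEN 2, Tyrobp was at 1.3 CPM with the next library at 0.203 CPM, Cd14 at 8.04 CPM with the next at 1.77 CPM, and Mpeg1 at 3.57 CPM with the next at 0.632 CPM. In the same library Cd53 was at 0.886 CPM with the next at 0.0902 CPM, and Plek at 0.959 CPM with the next at 0.0602 CPM. The sixth was Spi1 in iXEN 9, at 0.695 CPM with the next library at 0.331 CPM. The 8 fibroblast genes were at 2173 CPM in iXEN 2 and 992 CPM in iXEN 9, and their part in these values was not tested.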

How the results depend on the processing

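Of 120 tests of macrophage genes against MEF, 98 were called. All 98 kept their direction under every alternative run, 48 were called under every one, and 50 lost the call under at least 1. No share of all genes stands beside these counts, and the cause of the losses was not tested.

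Leaving out 1 library gave 26 to 28, 5 to 25, 15 to 28 and 17 to 28 called macrophage genes against MEF in iXEN, then XEN cells from ESC medium and iXEN, then XEN cells from XEN medium. The shares of all genes called were then 34.4 to 56.4, 2.57 to 41.8, 12.5 to 39.4 and 26.9 to 60.8 percent. Between iXEN and XEN cells in ESC medium the share was 0 to 0.362 percent, and between media in iXEN cells 0 to 3.12 percent.

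For XEN cells in ESC medium against MEF, 16.6 percent of all genes were called with no filter and 39.7 percent with DESeq2. Between iXEN and XEN cells in ESC medium no filter gave 0.0257 percent and DESeq2 3.04 percent, and in XEN medium DESeq2 gave 0.565 percent. Between media DESeq2 called 0.476 percent in XEN and 11.9 percent in iXEN cells, with 2 macrophage genes in the latter. Without iXEN 2 and 9 in XEN medium, an alternative chosen after seeing the data, 51.8 percent were called.

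With the replicate number as a block, libraries whose number occurs in 1 group only (3, 6, 7 and 9) add nothing to a contrast with MEF or between cell types, where only numbers 1 and 2 are shared and do not pair the samples. The block gave 26, 18, 0 and 26 called macrophage genes against MEF in the order above and 43.4, 9.31, 0 and 44.9 percent of all genes. The 0 for iXEN cells in XEN medium came with 20 macrophage genes at an unadjusted p under 0.05 by edgeR, a count given without the share of all genes. Between iXEN and XEN cells in ESC medium the block gave 0.0695 percent, and it changed no call of a macrophage gene between media.

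Log2 fold changes that changed sign were all of genes without a call. With the block they were -3.25 (Fcgr3), 0.18 (Fcer1g), -3.23 (Itgb2) and -2.89 (Cd74) in XEN cells in ESC medium against MEF, and -2.99 (Fcgr3) and -4.13 (Itgb2) in XEN medium. Between iXEN and XEN cells the block gave 1.47 (Itgb2) and 0.43 (Fcgr3) in ESC medium, 1.48 and 0.71 in XEN medium, and between media in XEN cells -0.90 (Mpeg1).

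With 1 library left out, Csf1r in iXEN cells in ESC medium against MEF ranged from -0.92 to 0.49, being positive without MEF 3 (0.49), iXEN 1 (0.12) or iXEN 2 (0.21). Mpeg1 in XEN cells against MEF ranged from -1.45 to 0.37 in ESC medium (0.37 without MEF 3). Its range in XEN medium was -2.52 to 0.70, with 0.70 without MEF 3, 0.37 without XEN 1 and 0.19 without XEN 2. Without XEN 7 alone, 3 genes turned negative in XEN cells in ESC medium against MEF, with ranges of -3.67 to 1.52 (Fcgr3), -3.34 to 3.52 (Itgb2) and -2.74 to 1.04 (Cd74). The ranges in XEN medium were -3.49 to 1.23 (Fcgr3) and -4.50 to 3.87 (Itgb2), again negative without XEN 7 alone. Between iXEN and XEN cells Itgb2 ranged from -6.28 to 0.59 in ESC medium and from -7.77 to 0.63 in XEN medium, positive without XEN 7 alone. Between media in XEN cells Mpeg1 ranged from -2.0 to 1.32, with -0.03 without XEN 1 in ESC medium and the lowest without XEN 7 in XEN medium. At 3 or 4 libraries a group and 3 counts worth 0.0653 to 0.149 CPM, differences between genes near 0 in endoderm cells were not detectable.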
